A study of Mus musculus with 2 samples.

Results

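Cytotoxic granules are described here in 2 RNA-seq libraries of CD8+ regulatory T cells, through 10 genes chosen by symbol from the 22609 genes listed in each library. They are the granzymes Gzma, Gzmb, Gzmc, Gzmk and Gzmm, the pore former Prf1, the matrix proteoglycan Srgn, the granule membrane protein Nkg7, and the granzyme inhibitors Serpinb9 and Serpinb6b. Cells were taken by FACS from the spleen of naive animals 3 months old. One library came from wild-type mice (WT) and 1 from mice labelled Tgfbr2-/-Eomes-/-, called DKO here. Tgfbr2 codes for the type II receptor of TGF-beta, and Eomes is a T-box factor of killer lymphocytes. The labels give neither the sort markers, nor how or in which cells the genes were deleted, nor how many mice went into a library. Total gene counts were 22307065 for WT and 19661212 for DKO. Each genotype had a single library, so differences were not checked against replicates and carry no p-value. Each interval below is an exact 95% interval of counting error between these libraries, not of variation between mice.

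Granzymes are serine proteases that killer lymphocytes store in acidic granules bound to serglycin, the product of Srgn. After release, perforin opens the target cell membrane and granzymes enter and cleave proteins there. Each granzyme prefers its own cleavage site, and cytosolic serpins shield the killer cell from granzymes that leak out of the granule. Eomes is known to act on perforin and granzyme genes in CD8+ T cells, and TGF-beta signalling is known to restrain them.

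Both targeted genes were lower in the library labelled DKO and neither was absent. Eomes was counted 10292 times in WT and 3589 times in DKO, and Tgfbr2 7825 and 4882 times. Counts cover whole genes and need not show a deletion of single exons. Tbx21, the T-box paralog of Eomes, had 348 and 382 CPM (counts scaled to library size). Among the 5 CD8 T cell markers, which included Cd8a and Cd8b1, the summed level was 4475 CPM in WT and 4210 CPM in DKO, and 0 differed 2-fold. By the rule given below, 15.2% of all compared genes differed 2-fold, so 0 of 5 is not unusual. Markers of other cell types were present in both libraries and mostly higher in DKO, with median log2 ratios of 1.36 for NK cells, 2.05 for neutrophils and their precursors and 0.97 for macrophages and monocytes. Their part in the values that follow was not tested. In a bulk library, more cells of a type and more RNA per cell cannot be told apart.

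Within the granule set, 2 genes were at least 2-fold higher in DKO (Gzma and Gzmb) and 1 was at least 2-fold lower (Gzmm), each with an interval that excluded a ratio of 1. The other 7 lay within 2-fold. Of the 11735 genes that reached 1 CPM in 1 or both libraries, 11.6% were called higher by the same rule, 3.6% lower and 15.2% either. With a limit of 1.5-fold, 5 of the 10 were higher (Gzma, Gzmb, Gzmc, Serpinb9 and Serpinb6b) and 2 lower (Gzmm and Gzmk), beside 17.7% higher, 8.42% lower and 26.1% either among all compared genes. Of these, Gzmc fell short of 1.5-fold with a prior count of 5 (log2 ratio 0.58), and Gzmk with scaling by T cell receptor complex genes (log2 ratio -0.51). Each of the 10 genes passed the 1 CPM minimum. All 10 intervals left out 1, as did 71.5% of the intervals of all compared genes. The 10 genes had a median log2 ratio of 0.51, beside 0.00 for all compared genes. Their log2 ratios spanned 5.62 units, from Gzmm to Gzma. In the plot of CPM by library, the longest line belongs to Gzmm and points the opposite way from those of Gzma and Gzmb.

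**Figure D1:**
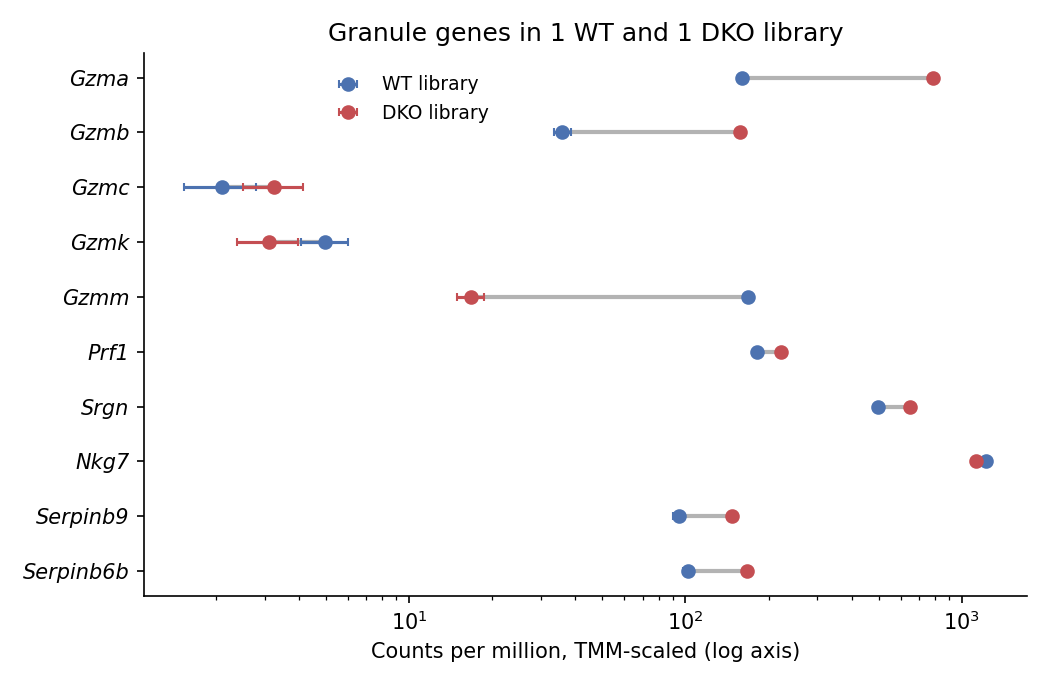
Level of each of the 10 granule genes in CPM (log axis) in the WT library (blue) and the DKO library (red), 1 library each. Bars are exact 95% Poisson intervals of the counts, which cover counting error only; Gzma and Gzmb lie far higher in DKO, Gzmm far lower, and Nkg7 nearly coincides.

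Gzma, granzyme A, is a tryptase that cleaves after basic residues. It was counted 3509 times in WT and 15693 times in DKO, which is 160.0 and 785 CPM. DKO was 4.91-fold higher (4.73 to 5.09). Among the 2627 genes that reached 100 CPM in either library, it took place 7 from the highest ratio.

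Gzmb, granzyme B, cleaves after aspartate and can activate caspases. Its 787 counts in WT stood against 3144 in DKO (35.9 and 157 CPM), a 4.38-fold higher level in DKO (4.05 to 4.75). It took place 10 by ratio among the same abundant genes. The 2 genes differed by similar factors: the ratio of Gzma to Gzmb counts was 1.12-fold higher in DKO than in WT (1.03 to 1.22).

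Gzmm, granzyme M, prefers methionine or leucine at its cleavage site and is best known from innate-like lymphocytes and NK cells. Its 3683 counts in WT stood against 334 in DKO (168 and 16.7 CPM), a 10.04-fold lower level in DKO (8.98 to 11.3). Per kilobase of exon, Gzma stood at 1.39 times Gzmm in WT and 68.7 times in DKO. Per kilobase of coding sequence these ratios were 0.967 and 47.7, so the order of both genes in WT turned with the length used. Of the 2627 abundant genes, Gzmm had the lowest ratio of DKO to WT. The genes nearest to it were Cxcr5, with a log2 ratio of -2.22, and Xcl1, with -1.89, against -3.33 for Gzmm. Among all 11735 compared genes, many of them with few counts, it took place 68 from the lowest.

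Genes with ratios nearest to those of the 2 higher granzymes, among the same abundant genes, were S100a8 and S100a4 for Gzma, with log2 ratios of 2.26 and 2.24 beside 2.29. For Gzmb, at 2.13, they were Anxa1 at 2.10 and Ly6a at 2.08. With 2 libraries this likeness rests on a single ratio per gene. The plot of ratio by abundance places Gzma and Gzmb at the upper edge of the genes of like abundance and Gzmm alone at the lower edge.

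**Figure D2:**
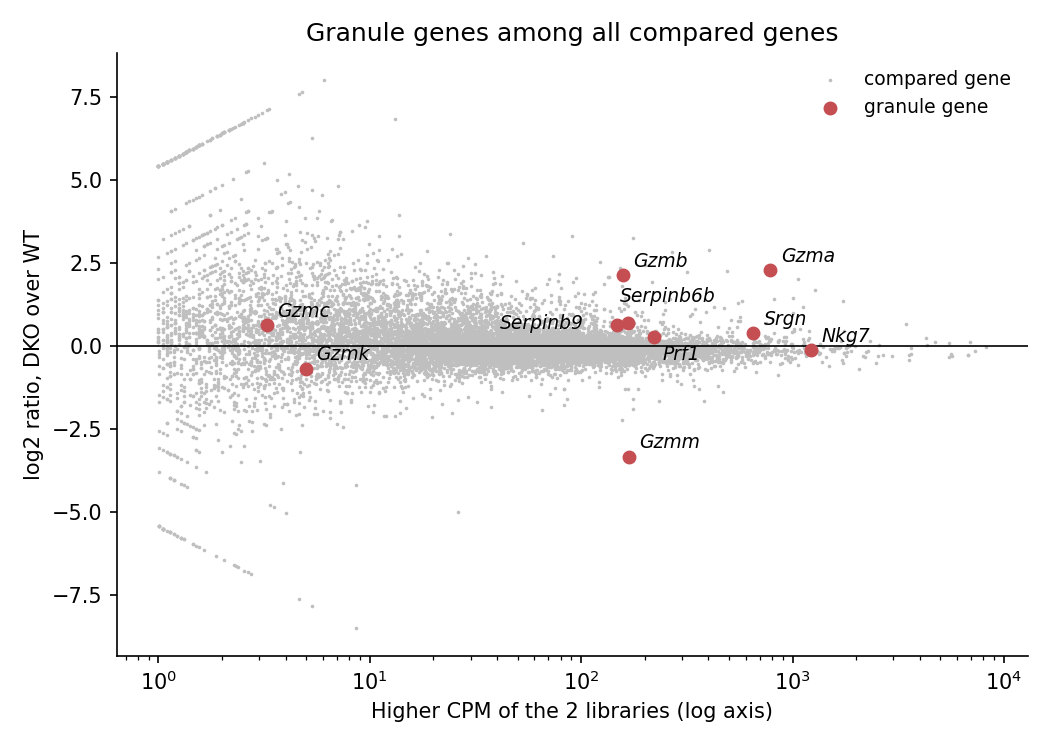
Log2 ratio of DKO over WT against the higher CPM of the 2 libraries (log axis) for each compared gene (grey) and the 10 granule genes (red). Gzmm has the lowest ratio of the 2627 genes that reached 100 CPM in either library.

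Gzmk and Gzmc were rare in both libraries. Gzmk, granzyme K, another tryptase and a marker of memory-like CD8+ T cells, was counted 109 times in WT and 62 times in DKO (4.97 and 3.10 CPM), 1.60-fold lower in DKO (1.16 to 2.23). Gzmk and Esm1 overlap on opposite strands in the GENCODE annotation, which need not be that used for the counts. Esm1 had 1 and 19 counts. Whether reads in the overlap were left out as ambiguous is not known. Gzmc, granzyme C, a protease of strongly activated mouse killer cells, was counted 46 times in WT and 65 times in DKO (2.10 and 3.25 CPM), 1.54-fold higher in DKO (1.05 to 2.31). The other granzymes of the same cluster, Gzmd, Gzme, Gzmf and Gzmg, had 2 to 36 counts per library, and Gzmn was listed at 0 in both. Counts of this size leave their ratios wide: that of Gzmd, the 1 of them compared, was 1.80-fold lower in DKO (1.01 to 3.41). Of the 50-base stretches of Gzmd, 21.9% also occur in transcripts of Gzmc, Gzme, Gzmf, Gzmg or Gzmn, and the shares for Gzme, Gzmf and Gzmg are 20.6%, 19.4% and 19.8%, so counts of these genes are uncertain.

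These directions add up to a different make-up of the granzyme counts. Summed over the 10 granzyme genes listed, counts were 8205 in WT and 19344 in DKO, or 374 and 968 CPM, 2.59-fold higher in DKO (2.52 to 2.65). Gzmm made up 44.9% of these counts in WT (Clopper-Pearson 95% interval 43.8 to 46.0) and 1.73% in DKO (1.55 to 1.92). Gzma made up 42.8% in WT (41.7 to 43.8) and 81.1% in DKO (80.6 to 81.7). Gzmb made up 9.59% (8.96 to 10.2) and 16.3% (15.7 to 16.8). In WT, then, Gzma and Gzmm had near-equal counts, not divided by length, while in DKO Gzma and Gzmb together held nearly all of them, as the bars of granzyme shares show. Per kilobase of exon the same shift appeared, with Gzmm at 37.1% in WT and 1.25% in DKO.

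**Figure D3:**
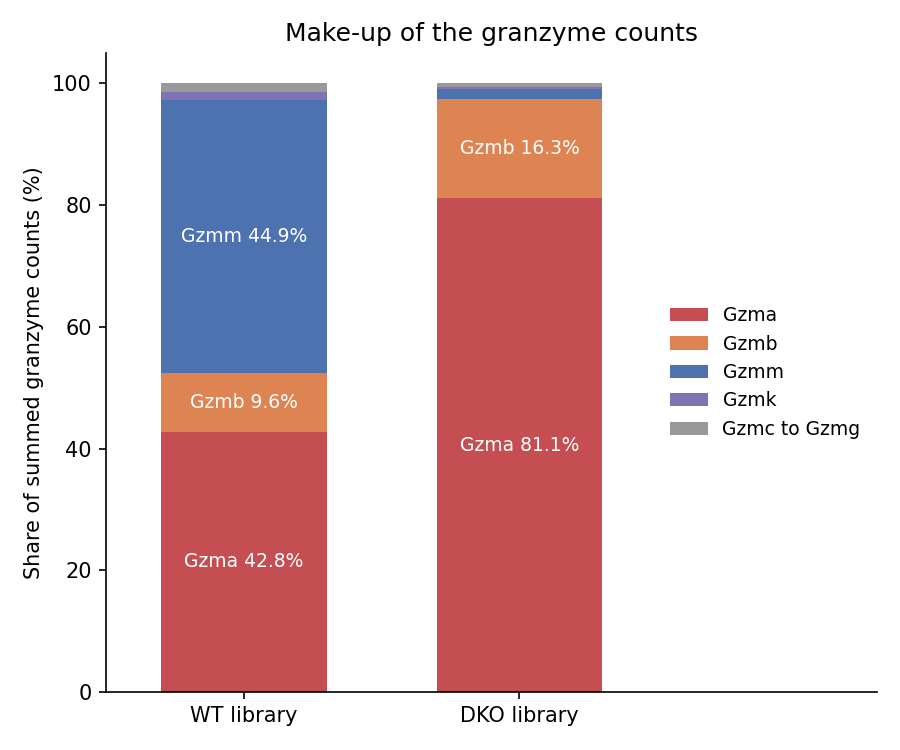
Share of each granzyme gene in the summed granzyme counts of a library (percent, from 0 to 100), 8205 counts in WT and 19344 in DKO, 1 library each. The Gzmm share goes from 44.9% in WT to 1.73% in DKO, and the Gzma share from 42.8% to 81.1%.

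The ratio of 2 genes inside a library does not depend on how libraries are scaled. It gives how far 2 genes moved apart, not the direction of either, which rests on the scaled values. There were 0.953 counts of Gzma per count of Gzmm in WT and 47.0 in DKO, a 49.3-fold change (43.8 to 55.6). For Gzmb against Gzmm the change was 44.0-fold (38.3 to 50.6). Of the 45 pairs among the 10 genes, 40 changed with an interval that left out 1, 27 changed at least 2-fold and 7 at least 10-fold. Pairs of all compared genes were not counted, so these counts have no background. Single-gene intervals left out 1 for 71.5% of compared genes. The 7 pairs at 10-fold all contained Gzmm, which follows from the single-gene ratios given above. Of the 9 pairs with Gzmm, the 2 below 10-fold were with Gzmk, at 6.27-fold (4.42 to 8.82), and with Nkg7, at 9.23-fold (8.23 to 10.4).

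Prf1, the pore-forming protein, was nearly level by comparison. It was counted 3997 times in WT and 4442 times in DKO (182 and 222 CPM), 1.22-fold higher in DKO (1.17 to 1.27). Relative to Prf1, Gzma was 4.02-fold higher in DKO (3.80 to 4.26), Gzmb 3.59-fold higher (3.29 to 3.93) and Gzmm 12.3-fold lower (10.9 to 13.9). Transcripts of Prf1 and of these granzymes thus stood in different proportions in the 2 libraries. Protein was not measured.

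Structural genes of the granule differed little. Srgn, whose product binds granzymes and perforin in the granule core, stood at 498 CPM in WT against 651 in DKO, 1.31-fold higher in DKO (1.28 to 1.34). The ratio of Prf1 to Srgn was 1.07-fold lower in DKO (1.02 to 1.13). Nkg7, a membrane protein needed for efficient granule release, had the highest level per length of the set, and stood at 1222 CPM in WT and 1121 CPM in DKO. It was 1.09-fold lower in DKO (1.07 to 1.11), and its log2 ratio of -0.12 turned to 0.05 when T cell receptor complex genes set the scale.

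The serpins were higher in DKO by like factors. Serpinb9, the mouse inhibitor of granzyme B, was counted 2071 times in WT and 2949 times in DKO (94.4 and 147 CPM), 1.56-fold higher in DKO (1.48 to 1.65). Serpinb6b, an inhibitor of mouse granzyme A, was counted 2241 times in WT and 3329 times in DKO (102 and 167 CPM), 1.63-fold higher in DKO (1.54 to 1.72). The ratio of Serpinb9 to Serpinb6b changed 1.04-fold with an interval that held 1 (0.965 to 1.13). Counts of both serpin genes together were 1.60-fold higher (1.54 to 1.66), a smaller factor than that of Gzma or Gzmb. Gzmb per Serpinb9 was 2.81-fold higher in DKO (2.55 to 3.09), and Gzma per Serpinb6b 3.01-fold higher (2.82 to 3.21). The plot of log2 ratios shows the serpins between the structural genes and the 2 higher granzymes.

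**Figure D4:**
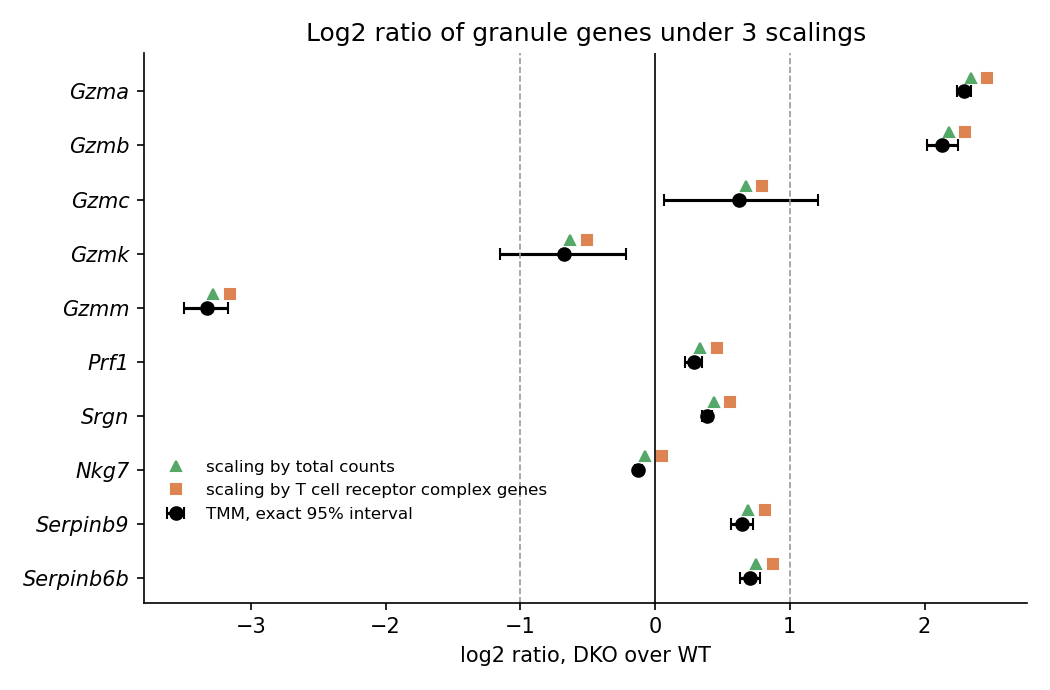
Log2 ratio of DKO over WT for the 10 granule genes with TMM scaling (black, exact 95% interval of counting error) and with total-count or T cell receptor gene scaling (coloured, no interval); dashed lines mark 2-fold. Gzma and Gzmb lie beyond 2-fold on the right and Gzmm on the left under each, and Nkg7 crosses 0.

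Levels of different genes are compared per kilobase of exon, with lengths from GENCODE. In WT the order was Nkg7 at 1336 CPM per kilobase, Srgn at 227, Gzma at 159, Gzmm at 114, Prf1 at 70.5, Serpinb6b at 45.2, Serpinb9 at 27.0, Gzmb at 25.0, Gzmk at 3.58 and Gzmc at 2.35. In DKO it was Nkg7 at 1227, Gzma at 780.2, Srgn at 297, Gzmb at 109.5, Prf1 at 86.0, Serpinb6b at 73.6, Serpinb9 at 42.2, Gzmm at 11.3, Gzmc at 3.64 and Gzmk at 2.23. Gzma thus passed Srgn, Gzmb passed Prf1 and both serpins, and Gzmm dropped from the fourth place to below the serpins. Counting intervals of neighbours overlapped for Serpinb9 and Gzmb in WT and for Gzmk and Gzmc in both libraries. With coding length in place of exon length, Gzmm stood above Gzma in WT, and in DKO Srgn stood above Gzma and Serpinb6b above Prf1.

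Genomic neighbours were read in RefSeq gene order (GRCm38, not the mm9 build of the counts). Gzma and Gzmk are adjacent among the genes listed in the files, and Gzma was higher in DKO while Gzmk was lower: the ratio of Gzma to Gzmk counts was 7.86-fold higher in DKO (5.69 to 10.9). Gpx8, on the other side of Gzma, had 35 and 46 counts and an interval that held 1, and Mir449a beyond it was listed at 0 in both. Gzmm lies between Cdc34 and Bsg. Cdc34 was 1.13-fold lower in DKO (1.06 to 1.20) and Bsg 1.41-fold lower (1.35 to 1.47), beside 10.04-fold for Gzmm. Beyond them, Madcam1 had 10 and 4 counts and Hcn2 14 and 3. Cdc34 and Bsg, the neighbours with enough counts to compare, differed far less than Gzmm.

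The serpin genes of the set are neighbours in a cluster with Serpinb1a and Serpinb9b. Serpinb1a, an inhibitor of neutrophil proteases, was counted 113 times in WT and 551 times in DKO, 5.33-fold higher (4.36 to 6.61). Serpinb9b, a near relative of Serpinb9, was counted 46 times in WT and 136 times in DKO, 3.22-fold higher (2.31 to 4.64). Serpinb1a and Serpinb9b passed the 2-fold limit, and Serpinb9 and Serpinb6b did not. Neutrophils express Serpinb1a strongly, and neutrophil markers, given below, were higher in DKO too. Which cells carried the Serpinb1a counts was not tested.

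Promoters of the genes at the extremes are shown here because Eomes binds T-box motifs. For 10 of 10 genes RefSeq gives a start site in GRCm38.p6, 12 start sites in all, and the 250 bases before each were searched on both strands. Shown 5′ to 3′ are Gzma (chr13:113100982-113101231, minus strand), Gzmb (chr14:56262335-56262584, minus strand), the first start of Gzmm (chr10:79688770-79689019, plus strand) and Nkg7 (chr7:43436888-43437137, plus strand). Nkg7 is shown for its T-box match. Capitals mark the letters of any motif searched.
Gzma: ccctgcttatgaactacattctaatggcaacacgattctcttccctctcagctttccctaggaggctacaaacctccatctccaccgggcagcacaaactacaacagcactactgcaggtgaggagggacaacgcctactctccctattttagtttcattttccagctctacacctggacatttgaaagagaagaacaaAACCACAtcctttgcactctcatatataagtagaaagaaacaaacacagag
Gzmb: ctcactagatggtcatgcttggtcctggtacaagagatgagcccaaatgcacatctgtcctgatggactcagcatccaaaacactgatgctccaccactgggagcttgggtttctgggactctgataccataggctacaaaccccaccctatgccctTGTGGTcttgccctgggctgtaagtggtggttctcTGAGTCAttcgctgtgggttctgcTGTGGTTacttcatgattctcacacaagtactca
Gzmm: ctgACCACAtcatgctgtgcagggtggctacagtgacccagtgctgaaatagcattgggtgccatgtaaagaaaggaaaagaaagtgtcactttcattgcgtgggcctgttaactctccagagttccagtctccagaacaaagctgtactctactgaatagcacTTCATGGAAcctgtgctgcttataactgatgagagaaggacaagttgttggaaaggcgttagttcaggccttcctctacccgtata
Nkg7: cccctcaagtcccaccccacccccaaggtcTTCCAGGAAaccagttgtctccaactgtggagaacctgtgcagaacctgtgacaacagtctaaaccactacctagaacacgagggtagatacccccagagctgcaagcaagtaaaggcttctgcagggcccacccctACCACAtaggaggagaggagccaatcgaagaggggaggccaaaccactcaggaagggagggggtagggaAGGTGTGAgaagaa

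The T-box letters AGGTGTGA occurred in 1 of the 12 windows, that of Nkg7, where the match begins 14 bases before the start, and in 1.12% of all 32851 RefSeq promoter windows. The shorter T-box core GGTGTG, which lies inside AGGTGTGA, occurred in 5 of 12 windows and 16.3% of all. These belonged to Nkg7, Serpinb6b, Serpinb9, Gzmk and the second start of Gzmm, and not to Gzma, Gzmb or the first start of Gzmm. RUNX letters TGTGGT occurred in 7 of 12 windows and 14.0% of all, with matches in the windows of Gzma, Gzmb and the first start of Gzmm alike. The longer TGTGGTT, which contains TGTGGT, occurred in 4 of 12 and 4.40% of all. Those 4 were Gzma, Gzmb, Gzmc and the second start of Srgn. The SMAD letters GTCTAGAC occurred in 0 of 12 windows and 0.167% of all, and CAGACA in 1 of 12, a start of Srgn, and 17.1% of all. The CRE letters TGACGTCA occurred in 1 of 12, that of Gzmc, and 1.55% of all, and the core TGACGT inside it in 3 of 12 and 6.47% of all. The STAT letters TTCNNNGAA occurred in 2 of 12, those of Nkg7 and Gzmm, and 7.02% of all. AP-1 letters TGANTCA occurred in 1 of 12, that of Gzmb, and 6.75% of all. A match describes letters only.

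Other genes of the granule pathway mostly lay within 2-fold. Of 49 listed genes outside the 10, 33 reached 1 CPM; 5 of these were at least 2-fold higher in DKO, 0 lower and 28 neither, with a median log2 ratio of 0.22. The 5 higher genes are 15.2% of the 33, near the 11.6% called higher among all compared genes. The 5 were Ctsh, Cd63, Serpinb9b, Serpinb1a and Serpina3f. By role, serpins had 3 of 6 higher, processing and acid proteases 1 of 7, matrix and sorting genes 1 of 7, exocytosis genes 0 of 8 and death ligands 0 of 4, each beside the same 11.6% of all compared genes.

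Ctsc encodes the dipeptidyl peptidase that activates granzymes by removing their propeptide. It stood at 174 CPM in WT against 203 in DKO, 1.17-fold higher in DKO (1.12 to 1.22). Cst7, a cystatin that inhibits Ctsc in killer cells, stood at 238 CPM in WT against 175 in DKO, 1.36-fold lower in DKO (1.30 to 1.42). Ctsh, which can also process granzyme B, stood at 32.8 CPM in WT against 79.8 in DKO, 2.43-fold higher in DKO (2.23 to 2.66), and myeloid cells express it as well. Of these 3 genes only Ctsh passed the 2-fold limit, and Ctsc and Cst7 lay within 1.5-fold.

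Lamp1, Rab27a and Unc13d lay close to level. Lamp1, a membrane protein of lysosomes and granules, had 385 and 377 CPM, a log2 ratio of -0.03 (positive when total counts or T cell receptor complex genes set the scale) and an interval that held 1. Rab27a, which docks granules at the membrane, was 1.13-fold higher in DKO (1.07 to 1.20). Unc13d, which primes them for fusion, had a log2 ratio of -0.05 with an interval that held 1, positive under the same scalings.

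Fasl, the ligand of the granule-independent killing route, stood at 41.8 CPM in WT against 58.0 in DKO, 1.39-fold higher in DKO (1.27 to 1.52). Serpina3g, an inhibitor of lysosomal cysteine proteases in activated T cells, stood at 179 CPM in WT against 272 in DKO, 1.52-fold higher in DKO (1.46 to 1.58), but 15.5% of its 50-base stretches also occur in transcripts of other genes. Cd63, a granule membrane tetraspanin, was counted 60 times in WT and 132 times in DKO, 2.40-fold higher (1.77 to 3.33). Serpina3f, a relative of Serpina3g, was counted 121 times in WT and 287 times in DKO, 2.60-fold higher (2.10 to 3.25).

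Among 15 measured regulators of granule genes, 4 were at least 2-fold higher in DKO and 1 lower, beside 11.6% higher and 3.6% lower among all compared genes, and 10 were neither. Their median log2 ratio was 0.14. The list includes both targeted genes, Eomes and Tgfbr2. The lower one was Eomes itself, 2.61-fold (2.52 to 2.72), and no regulator outside the targeted genes was called lower. The 4 higher ones, named after their values were seen, were Bhlhe40 at 3.23-fold, Zeb2 at 2.76-fold, Id2 at 2.49-fold and Prdm1 at 2.43-fold. Runx3, which promotes killer cell genes and was also named after its value was seen, was 1.63-fold lower and did not pass the 2-fold limit. Tbx21 at 1.10-fold, Stat4 at 0.858-fold and Irf4 at 1.53-fold of their WT levels did not pass it either, Stat4 and Irf4 also being named after their values were seen. Myeloid cells also express Zeb2, Prdm1 and Bhlhe40.

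NK cells carry most of these granule genes, and NK markers were more abundant in DKO too. Of 7 NK markers, 6 were at least 2-fold higher in DKO and 0 lower, beside 11.6% and 3.6% of all compared genes. The 7 had a median log2 ratio of 1.36. Their summed level was 450.3 CPM in WT and 944 CPM in DKO. Tyrobp, Fcer1g and Fcgr3 were among the 6, and whether NK cells or myeloid cells carried them was not tested. Ncr1, an NK receptor, was counted 734 times in WT and 1731 times in DKO, 2.59-fold higher (2.37 to 2.82). Tyrobp and Klrb1c, with the largest counts of the list, were 2.17-fold and 1.72-fold higher. None of the 7 was at 0 in either library. Per count of Ncr1, Gzma was 1.90-fold higher in DKO (1.72 to 2.08) and Gzmb 1.69-fold higher (1.51 to 1.91). By the same measure Gzmm was 26.0-fold lower (22.5 to 30.0) and Prf1 2.12-fold lower (1.93 to 2.34). Srgn was 1.98-fold lower per count of Ncr1 (1.81 to 2.17) and Nkg7 2.82-fold lower (2.58 to 3.08). Serpinb9 was 1.66-fold lower (1.49 to 1.84) and Serpinb6b 1.59-fold lower (1.43 to 1.76). These factors depend on the marker taken: beside 2.59-fold for Ncr1, Klrb1c was 1.72-fold and Clnk 3.35-fold higher. The intervals do not cover that choice. Per count of Cd8a, the co-receptor of the sorted cells, Gzma was 5.01-fold higher (4.80 to 5.22) and Gzmb 4.47-fold higher (4.13 to 4.85). Gzmm was 9.85-fold lower (8.78 to 11.1) and Prf1 1.24-fold higher (1.19 to 1.30). On that scale Srgn was 1.34-fold, Serpinb9 1.59-fold and Serpinb6b 1.66-fold higher, and Nkg7 1.07-fold lower. Per count of S100a8, a neutrophil marker, the change was 1.03-fold for Gzma (0.968 to 1.09) and 0.918-fold for Gzmb (0.837 to 1.01). Gzmm was 48.0-fold lower by that measure (42.5 to 54.3) and Prf1 3.92-fold lower (3.68 to 4.17). Srgn, Nkg7, Serpinb9 and Serpinb6b were lower by it too. S100a8 was the abundant gene nearest to Gzma in ratio, so a Gzma value near 1 follows from that. Neutrophil markers ranged from 1.27-fold (Mpo) to 7.49-fold higher (Ngp), so values per count of S100a8 depend on the marker taken.

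Serglycin and serpins are also made by myeloid cells, and granzyme B by mast cells, plasmacytoid dendritic cells and FOXP3+ T cells. Marker counts in this and the next paragraph stand beside 11.6% of all compared genes called higher and 3.6% called lower. Neutrophil and granulocyte precursor markers had 6 of 8 at least 2-fold higher in DKO (median 2.05, 475 and 2262 CPM summed). S100a9 and S100a8, with the largest counts among them, were 4.08-fold and 4.78-fold higher, while Elane, a protease of granulocyte precursors, had 99 and 117 counts. Macrophage and monocyte markers had 3 of 6 higher (median 0.97, 807 and 1612 CPM). Csf1r, the macrophage growth factor receptor, was 1.89-fold higher and Lyz2, lysozyme, 2.02-fold. These lists held no marker at 0 in either library.

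Mast cell and basophil markers had 4 of 5 compared higher (median 2.14, 17.6 and 60.4 CPM summed over 8), with Tpsb2 at 0 in both libraries and Mcpt4 at 0 in DKO. Plasmacytoid dendritic markers had 3 of 4 higher (median 1.63, 124 and 162 CPM), with Cox6a2 at 0 in WT. CD4 and FOXP3 T cell markers had 3 of 4 higher (median 2.04, 90.0 and 202 CPM), and Cd4 itself had 382 and 1579 counts. B cell markers had 1 of 5 higher (median 0.64, 47.3 and 64.9 CPM). Gamma-delta and innate-like markers had 1 of 3 higher and 1 lower (median 0.81, 28.8 and 13.9 CPM). The lower one, named after its value was seen, was Cd163l1 at 3.07-fold. The 5 markers fixed for CD8 regulatory T cells had 0 past 2-fold (median 0.10, 3258 and 2863 CPM), beside 15.2% of all compared genes. The CD8 T markers had a median of -0.15 that turned to 0.02 when T cell receptor complex genes set the scale.

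**Figure D5:**
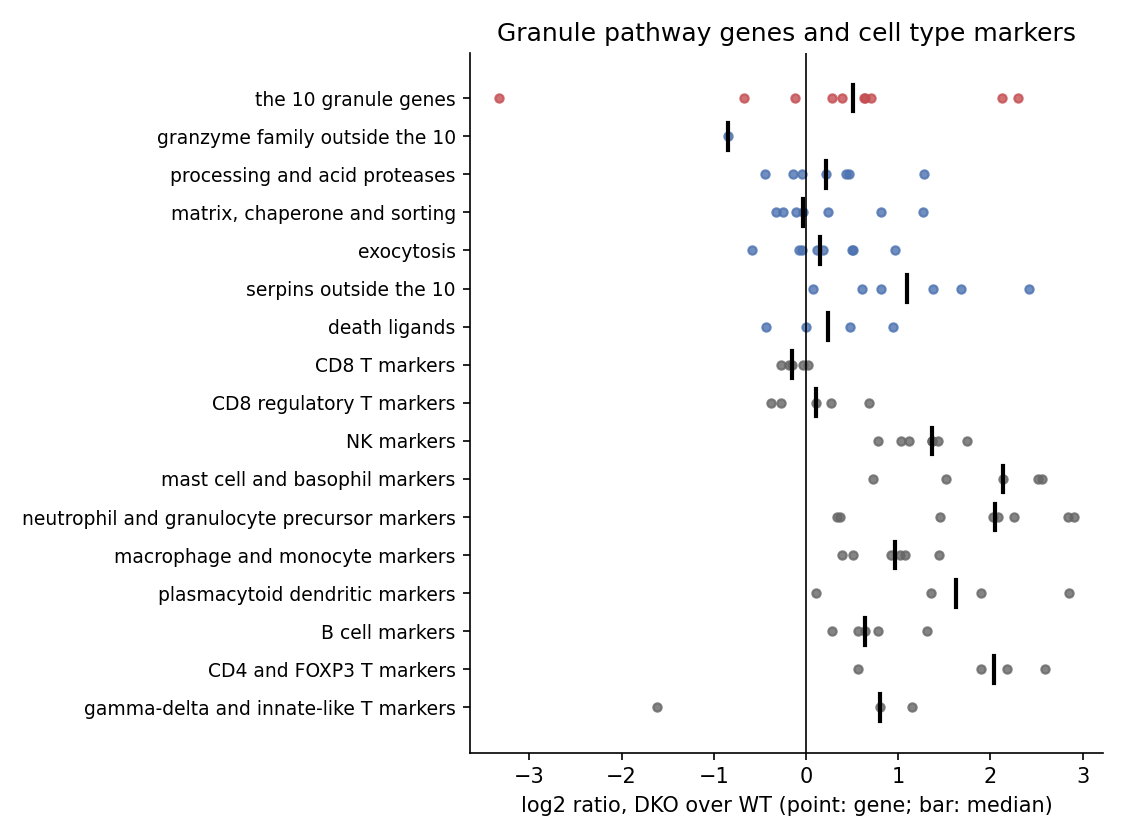
Log2 ratio of DKO over WT (points) for each compared gene of the granule lists and of the marker lists, with the median of a list as a bar; 1 library per genotype. The 10 granule genes spread from -3.33 to 2.29, the medians of the other granule lists lie between -0.85 and 1.10, and the NK markers all lie above 0.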

How the data were processed

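RNA of 1 WT and 1 DKO sample was sequenced as 50-base single-end reads from total RNA libraries, per the labels' protocols. The files the authors deposited give raw counts per gene as whole numbers. Of tools, bcl2fastq, TopHat2 2.0.8b and HTSeq appear in the submitters' processing notes, with mm9 as the build and no roles. The sources used here do not give annotation or strand setting. The 5 rows without a gene were left out. Non-unique alignments made up 66.4% (WT) and 64.8% (DKO) of the counts summed over all rows, and genes 28.5% and 30.5%.

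Counts were scaled by TMM in edgeR 4.0.16 (factors 0.983 and 1.02). Ratios used a prior count of 0.5, and intervals are exact Clopper-Pearson 95% intervals of the DKO share of a gene's counts (scipy 1.17.1). Intervals cover counting error only. Lacking molecular identifiers, reads may repeat a molecule, which would make the intervals too narrow even for that. A gene was called at 2-fold with an interval that left out 1. Changes of a ratio between 2 genes are conditional odds ratios with exact intervals. The edgeR test across genes needs replicates and was not run. The scripts were tested on simulated Poisson counts. These hold counting error only, so the test cannot show how intervals fare with differences between mice. Alternatives were total counts, DESeq2 1.42.0 size factors, 10 T cell receptor complex genes, other limits, prior counts and lengths. A stretch of 50 bases was called shared when it occurred exactly in a GENCODE transcript of another gene. That share was 4.14% for Gzmc, 2.92% for Serpinb6b, 0.378% for Serpinb9 and 0 for the other 7 genes. Coding length was taken from GENCODE coding exons. Adgre1 was found under its older symbol Emr1, and Trdc, Tcrg-C1 and Zfp683 had no row of that name.

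The 10 genes, the other lists and the limits were chosen with earlier results of these data known. Named genes were the 10 genes, Eomes, Tgfbr2, Tbx21, granule pathway genes past 2-fold and 7 fixed ones. The rule also covers the first and the most abundant markers of a list, of which those of the main lists are given, the 2 genes nearest in ratio to Gzma, Gzmb and Gzmm, and neighbours of Gzma and Gzmm. Others were chosen after their values were seen.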

Additional observations from a re-analysis of the deposited data

How the results depend on the processing

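No paired analysis was possible because each genotype had 1 library. Scaling by total counts, DESeq2 size factors or T cell receptor complex genes raised every log2 ratio by 0.05, 0.00 and 0.17. Of 40 log2 ratios of the 10 granule genes under these and a prior count of 5, 39 kept their sign, and the 1 that turned was Nkg7 with T cell receptor genes. Gzma and Gzmb stayed above 4-fold and Gzmm below a 4-fold drop in each of these. The 2 higher and 1 lower granule genes stayed 2 and 1 under every scaling, the prior of 5 and a 4-fold limit, and became 5 and 2 at a 1.5-fold limit. Over all genes, 1361 were higher and 423 lower. These counts became 738 and 147 with a minimum of 5 CPM, 2072 and 988 at 1.5-fold, and 515 and 139 at 4-fold. Without a minimum 693 were lower. Counts of granule pathway genes and NK markers stayed within 1.5 times. Per kilobase of exon, Gzma made up 51.7% of granzyme counts in WT and 85.8% in DKO, Gzmb 8.13% and 12.0%, and Gzmm 37.1% and 1.25%; dividing by length sets these. The single library per genotype limits every value: differences between mice were not measured. For Gzmc, Gzmk and the other rare granzymes, depth limits the ratio as well.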
